A study of Mus musculus with 22 samples.

Results

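DNA repair genes connected with the function of poly(ADP-ribose) polymerase (PARP) were followed in RNA of the mouse prefrontal cortex (PFC). The set was a list of 44 genes taken by symbol, and all 44 were found among the 39056 genes of the count table. It held 13 genes of base excision and single-strand break repair, 5 of non-homologous end joining, 11 of homologous recombination and strand-break signalling, 3 of mismatch repair, 10 of nucleotide excision repair (NER) and 2 post-replication repair helicases. Of these, 42 had enough reads to be tested, with at least 500 counts in all and a count in at least 3 libraries. Neil2, a DNA glycosylase for oxidized bases, had 290 counts over all libraries, from 0 to 29 per library. Mutyh, a glycosylase that removes adenine paired with oxidized guanine, had 264 counts, from 2 to 23 per library. Both were left out of every test, and no level is compared for them.

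RNA came from 11 male mice of 8 to 12 weeks on a C57BL/6J background that carried the transgenes tetO-EGFP/Rpl10a and CaMKIIα-tTA, so that the ribosomal protein Rpl10a bore an EGFP tag in cells in which the CaMKIIα promoter was active. The 3 Control mice received saline, the 4 EtOH mice received ethanol at 2 g/kg per day, and the 4 EtOH + ABT-888 mice received the same ethanol and, on day 4, the PARP inhibitor ABT-888 at 25 mg/kg. Mice of every group had 2 injections per day for 4 days, and the PFC was collected 2 h after the last of them. The study's treatment groups held no mice with ABT-888 alone, so an effect of ABT-888 without ethanol was not measured. Each mouse gave a TRAP library, which is RNA pulled down with the tagged ribosomes, and a total-RNA library, which holds RNA of all cell types of the PFC.

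PARP1 binds to nicks and breaks in DNA and builds chains of ADP-ribose there, which draw in the scaffold Xrcc1 with DNA ligase III, polymerase beta and end-cleaning enzymes. Cells that lack homologous recombination, in which Brca1 and Brca2 take part, are known to be sensitive to PARP inhibitors. In neurons, which do not divide, repair of oxidized bases, of single-strand breaks and of lesions that block transcription is the repair most often studied. Loss of aprataxin (Aptx) or of Tdp1 causes ataxia in humans.

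Depth ran from 6570957 to 22002618 counted reads in the 11 TRAP libraries and from 22132534 to 32421392 in the 11 total-RNA libraries, so low genes were measured more finely in total-RNA. In Control, TRAP libraries had less RNA of other cell types. All 6 astrocyte markers (median log2 fold change -3.35), all 6 oligodendrocyte markers (-2.80), both precursor markers, all 6 microglial markers (-3.36) and all 6 endothelial and mural markers (-3.03) were called lower than in total-RNA. Markers of excitatory neurons were not above total-RNA. Camk2a stood at a log2 fold change of -0.17 (adjusted p = 0.203, edgeR's quasi-likelihood test), and Slc17a7 (-1.13), Neurod6 (-2.23) and Tbr1 (-1.19) were called lower. Of 6 markers of inhibitory neurons, Gad1 (1.24), Gad2 (1.12) and Slc32a1 (2.52) were called higher and Pvalb (-2.36) lower. The TRAP libraries were thus not enriched in these excitatory markers, 4 of 5 of which were called lower, although the transgene is driven by the CaMKIIα promoter.

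Levels were first set side by side per length (RPKM, from the exons of each gene) in Control. Most members were transcripts of moderate or low level, with a median of 2.86 RPKM in total-RNA and 3.03 in TRAP, against 5.01 and 4.99 over the genes tested. Ddb1, an adaptor of the ubiquitin ligase that recognizes ultraviolet lesions, was the highest at 40.8 ± 2.3 RPKM in total-RNA and 37.9 ± 2.6 in TRAP (SD, n = 3). Apex1, the endonuclease that cuts at sites without a base, followed at 13.8 ± 0.83 and 22.5 ± 2.6. Ercc3, a helicase of the transcription factor TFIIH, had 13.5 ± 0.84 in total-RNA, within the spread of Apex1. Trp53bp1, which shields broken ends from resection, came next at 9.43 ± 0.37. Polb, the gap-filling polymerase of base excision repair, had 8.67 ± 1.2, Xrcc5, which encodes the Ku80 subunit that binds DNA ends, 8.26 ± 0.39, and Nbn, a subunit of the complex that senses double-strand breaks, 8.36 ± 0.93, and the last 3 lay within their spread. At the low end, Ung, the uracil glycosylase, had 0.209 ± 0.051 RPKM in total-RNA and Brca1 0.317 ± 0.083. In TRAP, Brca2 was the lowest at 0.202 ± 0.033.

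**Figure D1:**
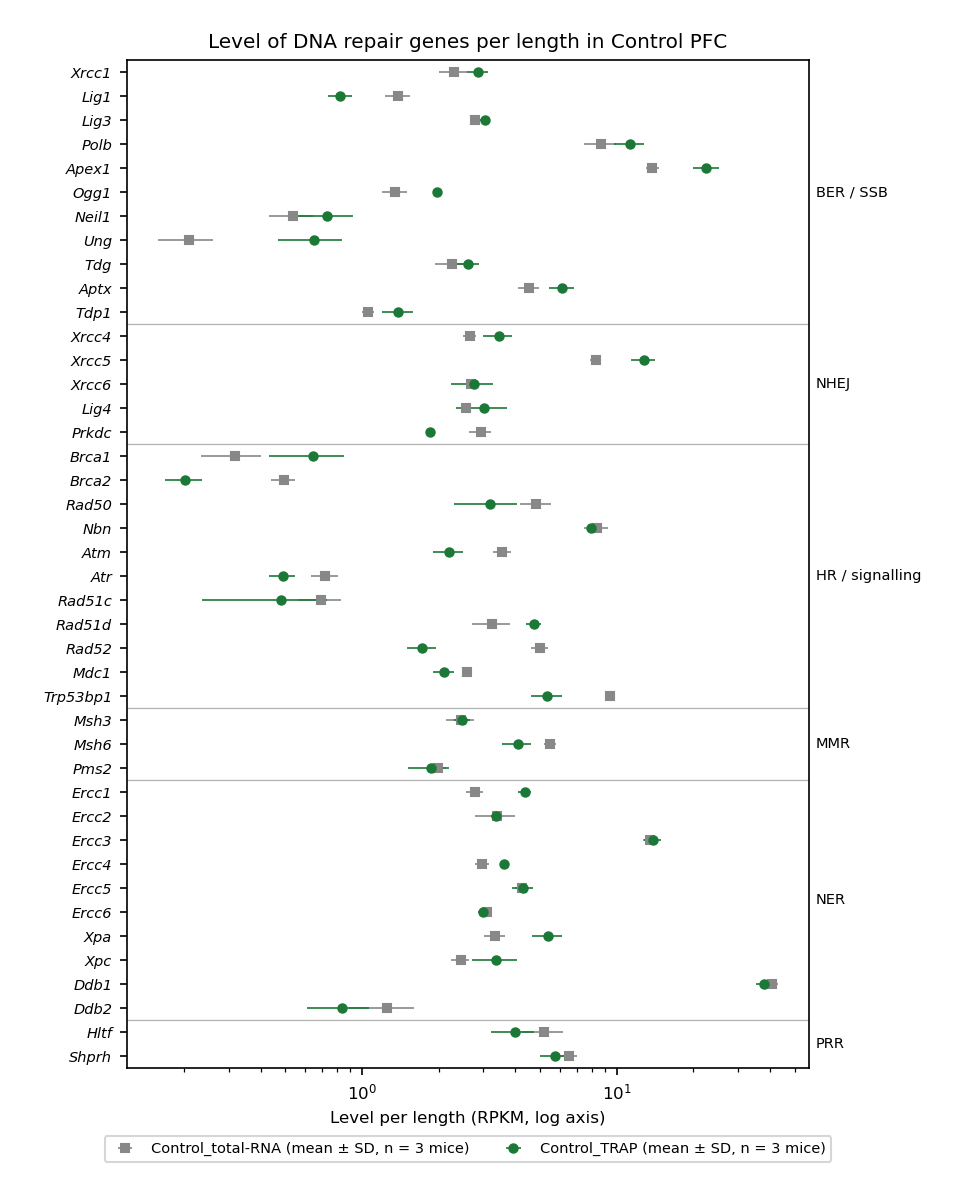
Level of each of the 42 tested repair genes per length (RPKM, log axis) in Control total-RNA (squares) and Control TRAP (circles), as mean ± SD of 3 mice, grouped by repair pathway (BER / SSB, base excision and single-strand break repair; NHEJ, non-homologous end joining; HR, homologous recombination; MMR, mismatch repair; NER, nucleotide excision repair; PRR, post-replication repair). Ddb1 stands apart at the high end at 40.8 RPKM in total-RNA, and Ung, Brca1 and Brca2 lie at the low end.

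The first question was which repair transcripts were more or less abundant in TRAP than in total-RNA. In Control, 19 of 42 members passed the test (45.2%), 10 higher and 9 lower in TRAP, against 59.9% of all genes tested, 29.5% higher and 30.4% lower (edgeR's quasi-likelihood test, Benjamini-Hochberg adjusted p under 0.05 over 14072 genes). In EtOH 13 were called, 8 higher and 5 lower, against 50.7% of all genes (24.3% higher and 26.5% lower). In EtOH + ABT-888 7 were called, 5 higher and 2 lower, against 41% of all genes (19.5% higher and 21.5% lower). The members' share lay below the background in each treatment. TRAP and total-RNA libraries did not overlap in 23 members in Control (54.8%, against 66.9% of all genes tested), in 9 in EtOH (21.4%, against 47.3%) and in 5 in EtOH + ABT-888 (11.9%, against 40.4%). With the mouse as a block, which uses that both libraries come from the same animal, the counts were 22 in Control, 20 in EtOH (10 higher, 10 lower) and 14 in EtOH + ABT-888 (7 higher, 7 lower), against 62.5%, 58.8% and 54.3% of all genes in the same fits. Without the total-RNA library of EtOH mouse 9, the count in EtOH was 8, against 43.6% of all genes in that fit. A count that falls from Control to EtOH + ABT-888 is no test of a difference between treatments.

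Of 11 genes of homologous recombination and strand-break signalling, 8 were called in Control (72.7%, against 59.9% of all genes tested), 6 lower (30.4% of all genes) and 2 higher (29.5%) in TRAP, with a median log2 fold change of -0.59 against 0.02 over all genes tested. In EtOH 6 of the 11 were called (54.5%, against 50.7% of all genes) and in EtOH + ABT-888 3 (27.3%, against 41%). Rad52, which anneals single-stranded DNA, had 31.1, 26.9 and 28.3 CPM in total-RNA of the Control mice and 9.50, 11.4 and 8.93 in TRAP. It was the most strongly called member (log2 fold change -1.54, SE 0.14, adjusted p = 3.12e-06), and it was lower in TRAP in 11 of 11 mice over all treatments. Atm, the kinase that signals double-strand breaks, had 33.4, 37.5 and 39.5 CPM in total-RNA and 25.4, 19.4 and 23.3 in TRAP (log2 fold change -0.72, SE 0.13, adjusted p = 0.000462). Trp53bp1 had 133 ± 5.3 CPM in total-RNA and 75.7 ± 10.5 in TRAP (SD, n = 3; log2 fold change -0.83, SE 0.11, adjusted p = 4.6e-05), although 2130 of its 14164 exonic bases overlap exons of Tubgcp4 on the other strand. Brca2, which loads the recombinase onto DNA, was also lower (log2 fold change -1.29, SE 0.22, adjusted p = 0.000389). None of these groups overlapped.

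Brca1 went the other way. It had 2.29, 3.52 and 2.31 CPM in Control total-RNA and 5.34, 7.31 and 3.75 in Control TRAP (log2 fold change 1.00, SE 0.30, adjusted p = 0.0129). It was called higher in TRAP in EtOH, where the groups overlapped (1.22, SE 0.34, adjusted p = 0.0102), and in EtOH + ABT-888 too (1.48, SE 0.28, adjusted p = 0.00137). Brca1 and Brca2, which act in the same pathway, were called in opposite directions in Control and in EtOH, but some of these calls were lost when a library was left out. Brca1 in Control was not called without TRAP of mouse 4 or total-RNA of mouse 1 or 7 (adjusted p up to 0.0601), and Brca2 in EtOH was not called without TRAP of mouse 2 or 9 or total-RNA of mouse 5, 8 or 9 (adjusted p up to 0.0966). Rad51d, a paralog of the recombinase, was the other member of this group called higher in Control (0.52, SE 0.16, adjusted p = 0.0128).

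Among genes of base excision and single-strand break repair, 5 of 11 were called in Control (45.5%, against 59.9% of all genes), 4 higher and 1 lower. Apex1 had 30.0, 36.3 and 29.7 CPM in Control TRAP against 21.02, 19.1 and 18.9 in total-RNA (log2 fold change 0.69, SE 0.12, adjusted p = 0.000426), and it was higher in TRAP in 11 of 11 mice. Of its 1422 exonic bases, 877 overlap exons of Pip4p1 on the other strand, and the strand setting of the counting is not given in the sources used here. Ung had the largest log2 fold change of the set at 1.63 (SE 0.32, adjusted p = 0.00114), from 0.967 to 1.47 CPM in total-RNA and from 2.67 to 4.65 in TRAP. Polb (0.37, SE 0.13, adjusted p = 0.0339) and Aptx (0.42, SE 0.12, adjusted p = 0.00989) were called higher, although Polb was not called without TRAP of mouse 1 or 7 or total-RNA of mouse 1 or 4 (adjusted p up to 0.133), and Lig1, the ligase of replication, lower (-0.78, SE 0.21, adjusted p = 0.00801). Of the partners of PARP1, Xrcc1 stood at 0.31 (SE 0.15, adjusted p = 0.0959), Lig3 at 0.11 (SE 0.11, adjusted p = 0.412) and Tdp1 at 0.39 (SE 0.16, adjusted p = 0.0571). Xrcc1 was not called in any treatment, but with the mouse as a block it was called higher in TRAP in EtOH (0.54, adjusted p = 0.0152) and in EtOH + ABT-888 (0.58, adjusted p = 0.0168).

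In end joining, Xrcc5 was called higher in Control TRAP (0.61, SE 0.12, adjusted p = 0.000942) and Prkdc, the kinase that joins Ku on broken ends, lower (-0.68, SE 0.11, adjusted p = 0.000274), while Lig4, the ligase of this pathway, stood at 0.24 (SE 0.17, adjusted p = 0.231). In mismatch repair, Msh6 was called lower (-0.44, SE 0.13, adjusted p = 0.0135), and Pms2 stood at -0.10 (SE 0.15, adjusted p = 0.579). In NER, 3 of 10 were called in Control (30%, against 59.9% of all genes, 29.5% higher) and 5 of 10 in EtOH (50%, against 50.7%, 24.3% higher), all of them higher. Ercc1, the partner of the nuclease Ercc4, had a log2 fold change of 0.62 (SE 0.15, adjusted p = 0.00343), Xpa, the scaffold of the incision complex, 0.68 (SE 0.17, adjusted p = 0.00566) and Xpc, which finds distorted DNA, 0.46 (SE 0.16, adjusted p = 0.0267). Xpc was not called without TRAP of mouse 4 or total-RNA of mouse 4 or 7 (adjusted p up to 0.116). Hltf and Shprh, the helicases that help replication past damage, stood at -0.40 (adjusted p = 0.0542) and -0.20 (adjusted p = 0.121) and were not called. With the block, both were called lower in Control and in EtOH.

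Over the 3 treatments, Apex1, Brca1 and Xpc were called higher in TRAP each time, and Atm and Rad52 lower each time. A further 17 members were called in 1 or 2 treatments, 20 in none, and 0 in opposite directions. Of all genes tested, 16.8% were called higher each time and 19.2% lower each time, against 7.14% and 4.76% of members, and 33.1% were called in none, against 47.6% of members. With the mouse as a block, Xpa was also called higher each time, and Brca2, Prkdc and Trp53bp1 lower each time, and 6 of the 20 were called in at least 1 treatment (Xrcc1, Xrcc6, Nbn, Mdc1, Hltf and Shprh). In the blocked fits 9.52% of members were called higher each time and 11.9% lower each time, against 21.3% and 24.2% of all genes, and 66.7% in at least 1 treatment, against 73% of all genes. Within mice, 7 members were higher in TRAP in all 11 animals (Polb, Apex1, Tdg, Ercc1, Ercc4, Xpa and Xpc) and 7 were lower in all 11 (Lig1, Prkdc, Brca2, Atm, Rad52, Trp53bp1 and Msh6), which is 16.7% each, against 24.5% and 26.7% of all genes tested. Members that were higher in TRAP tended to have less exonic sequence, with all annotated exons of a gene joined. Across the 42 members Spearman's rho between the Control log2 fold change and this exon length was -0.46, and across 14051 genes tested -0.18. With gene length rho was -0.34 across members and -0.22 across all genes. Genes share the libraries and are not replicates.

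**Figure D2:**
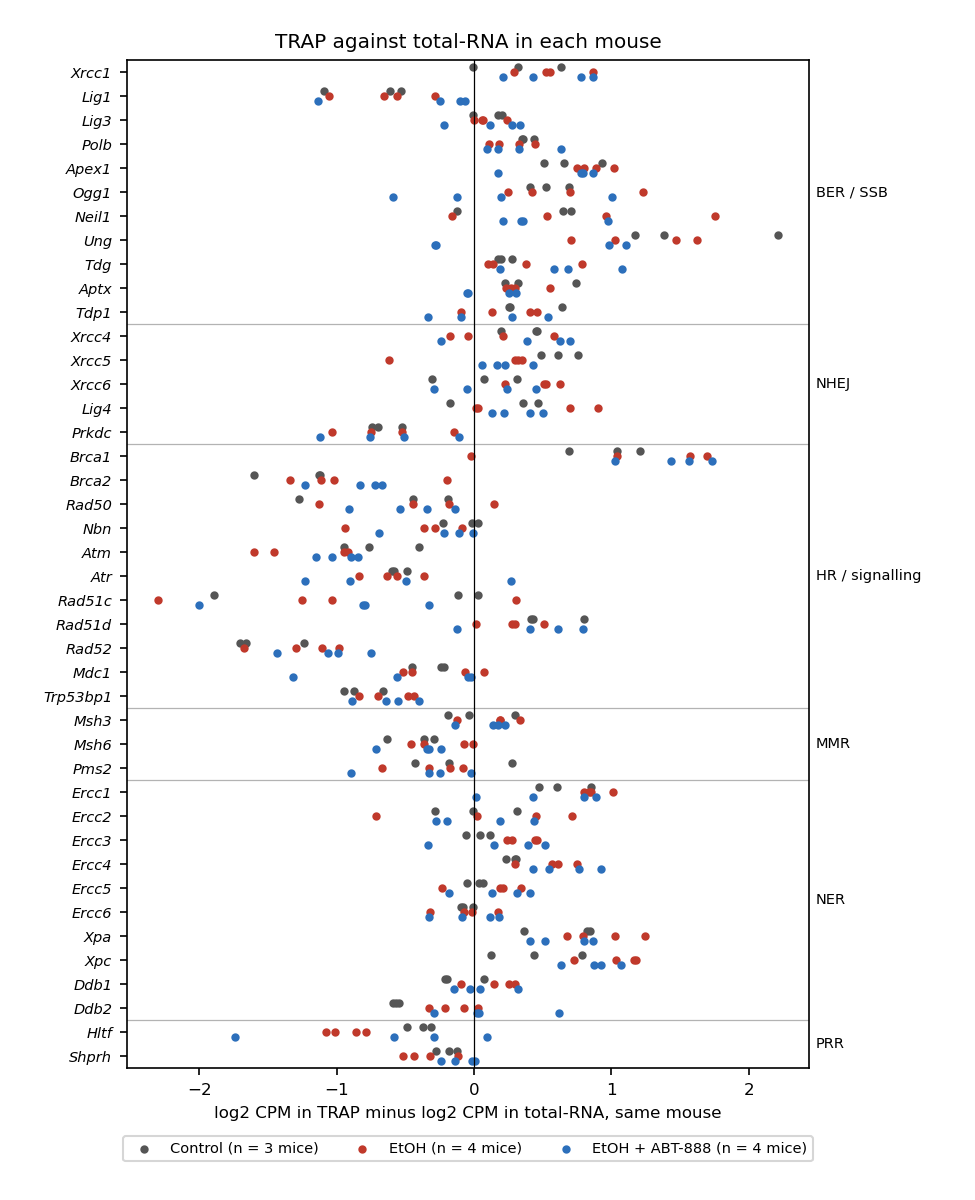
Difference in log2 CPM between the TRAP and the total-RNA library of the same mouse for each of the 42 members, by pathway, with 1 point per mouse and colours for the 3 Control, 4 EtOH and 4 EtOH + ABT-888 animals. Rad52, Atm and Brca2 lie left of 0 in all 11 mice, and Apex1, Xpa and Xpc lie right of 0 in all 11.

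The next question was which repair transcripts changed with EtOH. In TRAP, 4 of 42 members passed the test against Control (9.52%, against 5.24% of all genes tested), 2 higher (2.77% of all genes) and 2 lower (2.47%). The higher ones were Ercc4 and Xpa, both of NER, and the lower ones were Hltf and Shprh. Hltf is on the list because the study singled it out for its TRAP values, so each of its treatment differences in TRAP is a description and no independent result. Without Hltf, 3 of 41 were called (7.32%). The 4 genes lie on different chromosomes, and their promoters, from 250 bases before to 50 bases after the start in RefSeq (GRCm38.p6), are shown because these members were called in TRAP. Capitals mark matches on either strand to the GC box (GGGCGG), the CCAAT box (CCAAT) or the glucocorticoid receptor half-site (AGAACA). Ercc4 (chr16:13109486-13109785, plus strand) has 1 CCAAT box, Xpa (chr4:46196262-46196561, minus strand) 1 CCAAT box and 1 half-site, Hltf (chr3:20057561-20057860, plus strand) 1 GC box and 2 CCAAT boxes, and Shprh (chr10:11149180-11149479, plus strand) 4 GC boxes.
Ercc4: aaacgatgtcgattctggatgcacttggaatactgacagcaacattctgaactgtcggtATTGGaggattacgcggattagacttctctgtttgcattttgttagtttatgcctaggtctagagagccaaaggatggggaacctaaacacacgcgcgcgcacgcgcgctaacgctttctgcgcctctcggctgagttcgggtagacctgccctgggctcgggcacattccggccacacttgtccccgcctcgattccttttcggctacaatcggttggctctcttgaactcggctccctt
Xpa: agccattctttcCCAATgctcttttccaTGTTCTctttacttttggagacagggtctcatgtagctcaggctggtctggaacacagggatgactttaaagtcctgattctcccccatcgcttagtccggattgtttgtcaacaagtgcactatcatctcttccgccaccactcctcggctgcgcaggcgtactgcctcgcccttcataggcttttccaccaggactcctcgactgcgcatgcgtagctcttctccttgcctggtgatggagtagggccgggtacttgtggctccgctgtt
Hltf: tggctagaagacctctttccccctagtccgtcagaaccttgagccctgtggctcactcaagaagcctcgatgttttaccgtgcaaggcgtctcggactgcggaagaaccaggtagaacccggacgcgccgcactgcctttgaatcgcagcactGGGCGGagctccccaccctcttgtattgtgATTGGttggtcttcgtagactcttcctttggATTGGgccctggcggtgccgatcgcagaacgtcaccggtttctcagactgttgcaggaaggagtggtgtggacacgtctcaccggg
Shprh: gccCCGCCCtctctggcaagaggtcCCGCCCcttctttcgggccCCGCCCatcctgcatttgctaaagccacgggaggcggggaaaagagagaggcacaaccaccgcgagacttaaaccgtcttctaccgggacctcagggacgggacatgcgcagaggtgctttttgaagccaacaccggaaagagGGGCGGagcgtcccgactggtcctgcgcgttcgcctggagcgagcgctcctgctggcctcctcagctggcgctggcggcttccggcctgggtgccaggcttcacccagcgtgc
No match is shared by all 4. Among 32851 promoters of this length, which were not limited to genes tested here, 35.7% hold the GC box, 37.4% the CCAAT box and 19% the half-site. Among 40 promoters of the 34 tested members with an entry, the shares were 67.5%, 45% and 15%, so the 2 sets are unlike in expression. The E-box (CACGTG) and the cyclic AMP response element (TGACGTCA), also searched and without a match in the 4 sequences shown, were in 15% and 10% of member promoters against 7.15% and 1.79% of all. Member promoters had a median GC content of 59.2% against 52.7% over all promoters. A match describes the letters and is not a bound site.

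Ercc4, the nuclease that cuts on the 5′ side of a lesion together with Ercc1, had 25.2, 23.4 and 24.1 CPM in TRAP of the Control mice and 39.2, 38.3, 36.1 and 39.4 in EtOH. The groups were far apart and each was narrow. The log2 fold change was 0.68 (SE 0.15, adjusted p = 0.0279). In total-RNA Ercc4 had 21.4, 18.9 and 19.6 CPM in Control and 26.5, 31.1, 21.4 and 25.7 in EtOH, and the change did not pass the test (0.39, SE 0.14, adjusted p = 0.0678).

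With the quasi-likelihood test, Xpa was the only member called higher with EtOH in both sample types. Ercc5 was called higher in both with exactTest (adjusted p = 0.0394 in TRAP and 0.0039 in total-RNA) and DESeq2 (0.0295 and 0.00279). Brca2 (0.0422 and 0.00427) and Ercc4 (0.000942 and 0.0392) were called higher in both with DESeq2. In TRAP Xpa had 8.86, 11.6 and 10.0 CPM in Control and 18.6, 30.0, 23.8 and 13.5 in EtOH (log2 fold change 1.10, SE 0.28, adjusted p = 0.0398), with mouse 9 nearest to Control. In total-RNA it had 6.86, 6.42 and 5.65 CPM in Control and 10.7, 12.6, 11.7 and 8.41 in EtOH (0.79, SE 0.18, adjusted p = 0.0104), again without overlap and with mouse 9 nearest. Of its exonic bases, 77 overlap exons of Ncbp1 on the other strand. Across the 22 libraries log2 levels of Xpa ran against those of Hltf (Pearson's r = -0.88, a description over libraries that share treatments and mice).

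Hltf had 21.6, 20.3 and 28.8 CPM in Control TRAP and 5.75, 5.01, 7.96 and 16.7 in EtOH, a log2 fold change of -1.40 (SE 0.36). In total-RNA, where it was called too (-0.91, SE 0.29, adjusted p = 0.0467), it had 26.8, 28.5 and 37.2 CPM in Control and 10.4, 10.7, 16.1 and 28.8 in EtOH, so that mouse 9 lay within the Control range. Shprh had 76.7, 72.9 and 91.2 CPM in Control TRAP and 53.2, 48.2, 40.5 and 62.0 in EtOH (-0.64, SE 0.17, adjusted p = 0.0476). In total-RNA Shprh had 87.1, 88.2 and 99.4 CPM in Control and 72.1, 60.2, 43.9 and 88.7 in EtOH, and the groups overlapped (-0.47, SE 0.18, adjusted p = 0.0899). The transcripts most like Hltf over the 22 libraries were Usp32, Cntn4, Tdrkh, Farsb and Rpgrip1l (Pearson's r from 0.93 to 0.94), and the most like it among the members was Atm (r = 0.85).

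**Figure D3:**
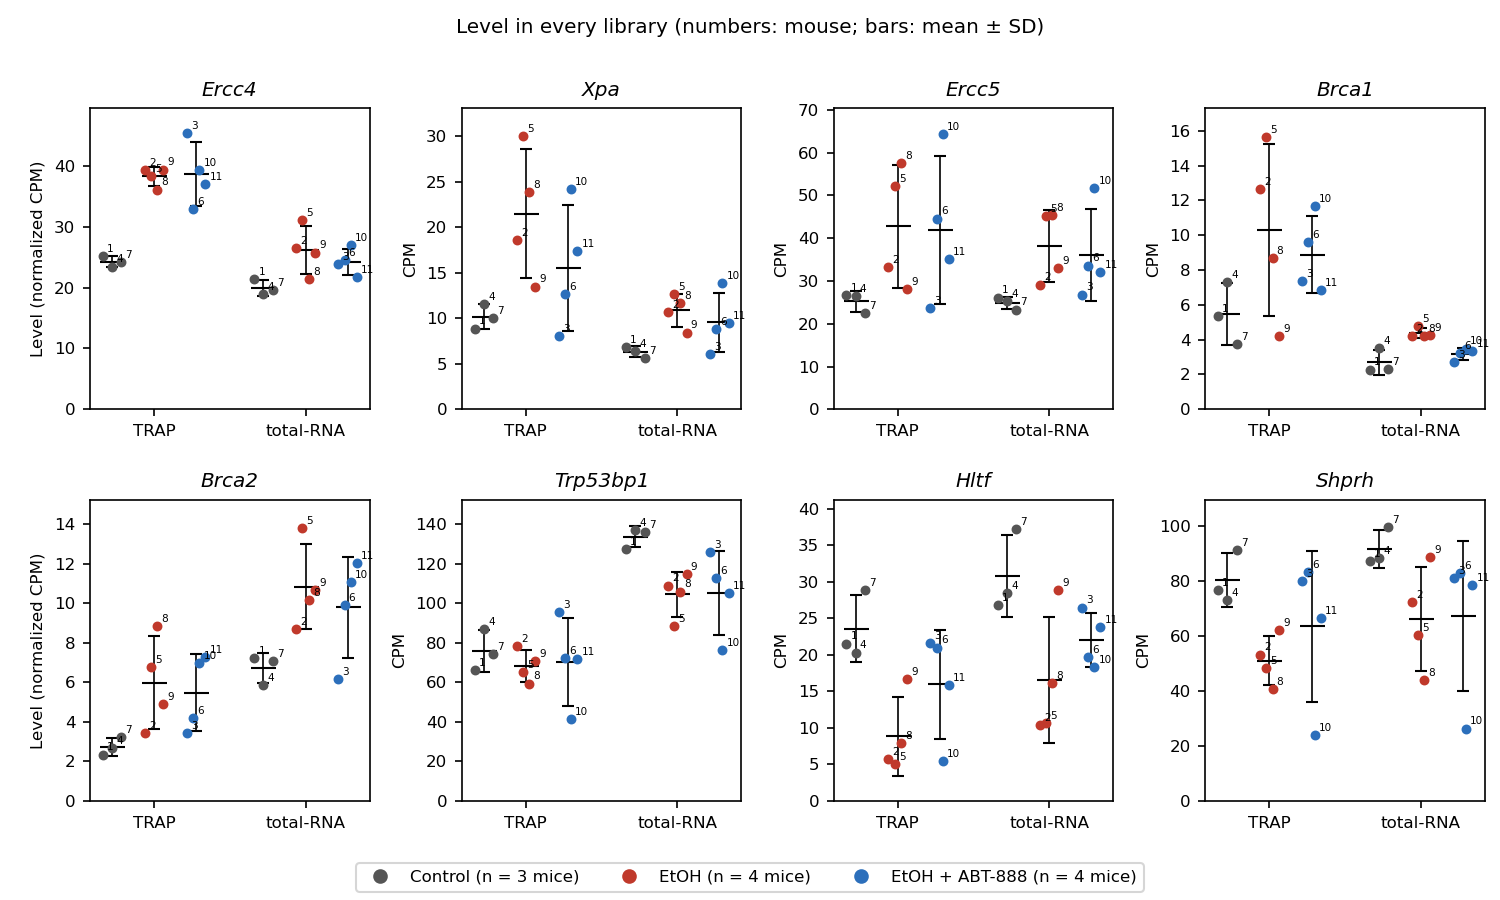
Level in every library (normalized CPM, axes from 0) of the 8 members called with EtOH in at least 1 sample type, with the mouse number beside each point and bars for mean ± SD of the 3 Control, 4 EtOH and 4 EtOH + ABT-888 animals. Ercc4 in TRAP separates all 4 EtOH mice (36.1 to 39.4) from Control (23.4 to 25.2), and Hltf falls in EtOH with mouse 9 nearest to Control.

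Of 10 NER genes, 2 passed the test with EtOH in TRAP (20%, against 5.24% of all genes) and 9 had a log2 fold change above 0, with a median of 0.52 against 0.02 over all genes. In total-RNA 2 of 10 passed (20%, against 17.6% of all genes) and 6 were above 0, with a median of 0.17 against 0.00. In TRAP, Ercc3, Ercc4, Ercc5, Xpa, Xpc and Ddb2 had an unadjusted p under 0.05, all higher. Only Ercc4 and Xpa passed the adjustment over all genes in the quasi-likelihood test. Xpc stood at 0.92 (SE 0.28, adjusted p = 0.0748), Ercc5, the nuclease that cuts on the 3′ side, at 0.79 (SE 0.25, adjusted p = 0.0863), Ercc3 at 0.37 (SE 0.14, adjusted p = 0.153) and Ddb2, the lesion-binding partner of Ddb1, at 0.79 (SE 0.36, adjusted p = 0.212). Ercc6, which acts where transcription stalls, stood at -0.17 (SE 0.16, adjusted p = 0.563). Over all 42 members, 12 had an unadjusted p under 0.05, 8 higher and 4 lower (28.6%, against 23.1% of all genes), and in 11 members (26.2%, against 22.3%) the EtOH and Control libraries did not overlap. Brca2 (1.14, SE 0.38, adjusted p = 0.0997), Brca1 (0.94, SE 0.41, adjusted p = 0.191) and Atm (-0.88, SE 0.33, adjusted p = 0.139) did not pass the quasi-likelihood test. With exactTest Ercc5 passed in TRAP (adjusted p = 0.0394), and with DESeq2 Ercc5 (0.0295) and Brca2 (0.0422) did. In TRAP exactTest called 6 members (9.75% of all genes) and DESeq2 7 (10.8%). None of the partners of PARP1 in single-strand break repair was called with EtOH. In TRAP and in total-RNA the log2 fold changes were 0.05 and -0.22 for Xrcc1, -0.29 and -0.27 for Lig3, -0.09 and -0.01 for Polb, -0.39 and -0.31 for Aptx, and -0.16 and -0.01 for Tdp1.

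In total-RNA, 6 of 42 members passed the test with EtOH (14.3%, against 17.6% of all genes tested), 4 higher (9.04% of all genes) and 2 lower (8.6%). Beside Xpa, the higher ones were Ercc5, Brca1 and Brca2, and beside Hltf the lower one was Trp53bp1. Ercc5 had 26.1, 25.3 and 23.3 CPM in Control and 29.2, 45.2, 45.5 and 33.0 in EtOH (log2 fold change 0.62, SE 0.16, adjusted p = 0.0207). Brca1 had 2.29, 3.52 and 2.31 CPM in Control and 4.22, 4.79, 4.20 and 4.27 in EtOH (0.69, SE 0.22, adjusted p = 0.0466). Brca2 had 7.23, 5.87 and 7.09 CPM in Control and 8.71, 13.8, 10.1 and 10.7 in EtOH (0.69, SE 0.18, adjusted p = 0.0237). In these 3 genes every EtOH library lay above every Control library, by a small margin in mouse 2 for Ercc5 and Brca2. Trp53bp1 had 127, 137 and 136 CPM in Control and 109, 88.4, 106 and 115 in EtOH (-0.35, SE 0.11, adjusted p = 0.0404), all below Control. Over all members, the groups did not overlap in 10 (23.8%, against 30.5% of all genes tested). In bulk tissue, fewer cells of a type and less RNA per cell cannot be told apart. Beside these changes, microglial markers moved in the same libraries: 5 of 6 were called lower with EtOH in total-RNA (median log2 fold change -1.61), and their summed level was 225 to 238 CPM in Control and 77.1 to 112 in EtOH, and 3 of 6 endothelial and mural markers were called lower. Also in total-RNA, 2 of 5 excitatory neuron markers were called lower. Of 6 inhibitory neuron and 6 oligodendrocyte markers 1 each was called higher, and of 6 astrocyte markers 1 was called higher and 1 lower. In TRAP, 1 of 6 microglial markers was called lower, at summed levels of 12.7 to 26.2 CPM in Control and 4.595 to 31.8 in EtOH, where Aif1 and Cx3cr1 had 0 counts in at least 1 library. In TRAP, 1 of 5 excitatory neuron markers was called lower with EtOH (median log2 fold change -1.10) and 2 of 5 with EtOH + ABT-888 (-1.08), while their summed level, most of it Camk2a, was 2353 to 2612 CPM in Control and 2481 to 3205 in EtOH. Their part in the result was not tested.

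The calls with EtOH rested on few libraries. In TRAP, 0 members were called without Control mouse 1, 4 or 7 or without EtOH mouse 5, when all genes gave 94, 84, 112 and 372 calls in place of 737. Without EtOH mouse 8 there were 2 (4.02% of all genes), without mouse 2 there were 3 (4.31%), and without mouse 9 there were 7 (11%). In total-RNA there were 0 without Control mouse 7 (8.71% of all genes), 1 without Control mouse 1 (6.7%), 2 without Control mouse 4 (6.24%), 1 without EtOH mouse 5 (11.6%), 3 without mouse 2 (14.9%), 4 without mouse 8 (15.5%) and 10 without mouse 9 (25.7%). Ercc4 in TRAP kept a log2 fold change of 0.65 to 0.71 over these 7 fits (adjusted p from 0.0233 to 0.135), and Xpa in total-RNA kept 0.71 to 0.89 (adjusted p from 0.00252 to 0.0549) and lost the call in 1 of 7. The call of Ercc4 was lost in 4 of 7 fits, that of Xpa in TRAP in 5 (log2 fold change 0.88 to 1.26), and those of Hltf (-1.90 to -1.21) and Shprh (-0.75 to -0.54) in TRAP in 6 each. In total-RNA, Ercc5 and Brca2 lost it in 4 of 7, Brca1 in 5, and Trp53bp1 and Hltf in 6 each. The direction was kept in all of these. A single fit over all 22 libraries called 0 members in total-RNA and 1.07% of all genes, and with DESeq2 Hltf in total-RNA did not pass (adjusted p = 0.121).

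**Figure D4:**
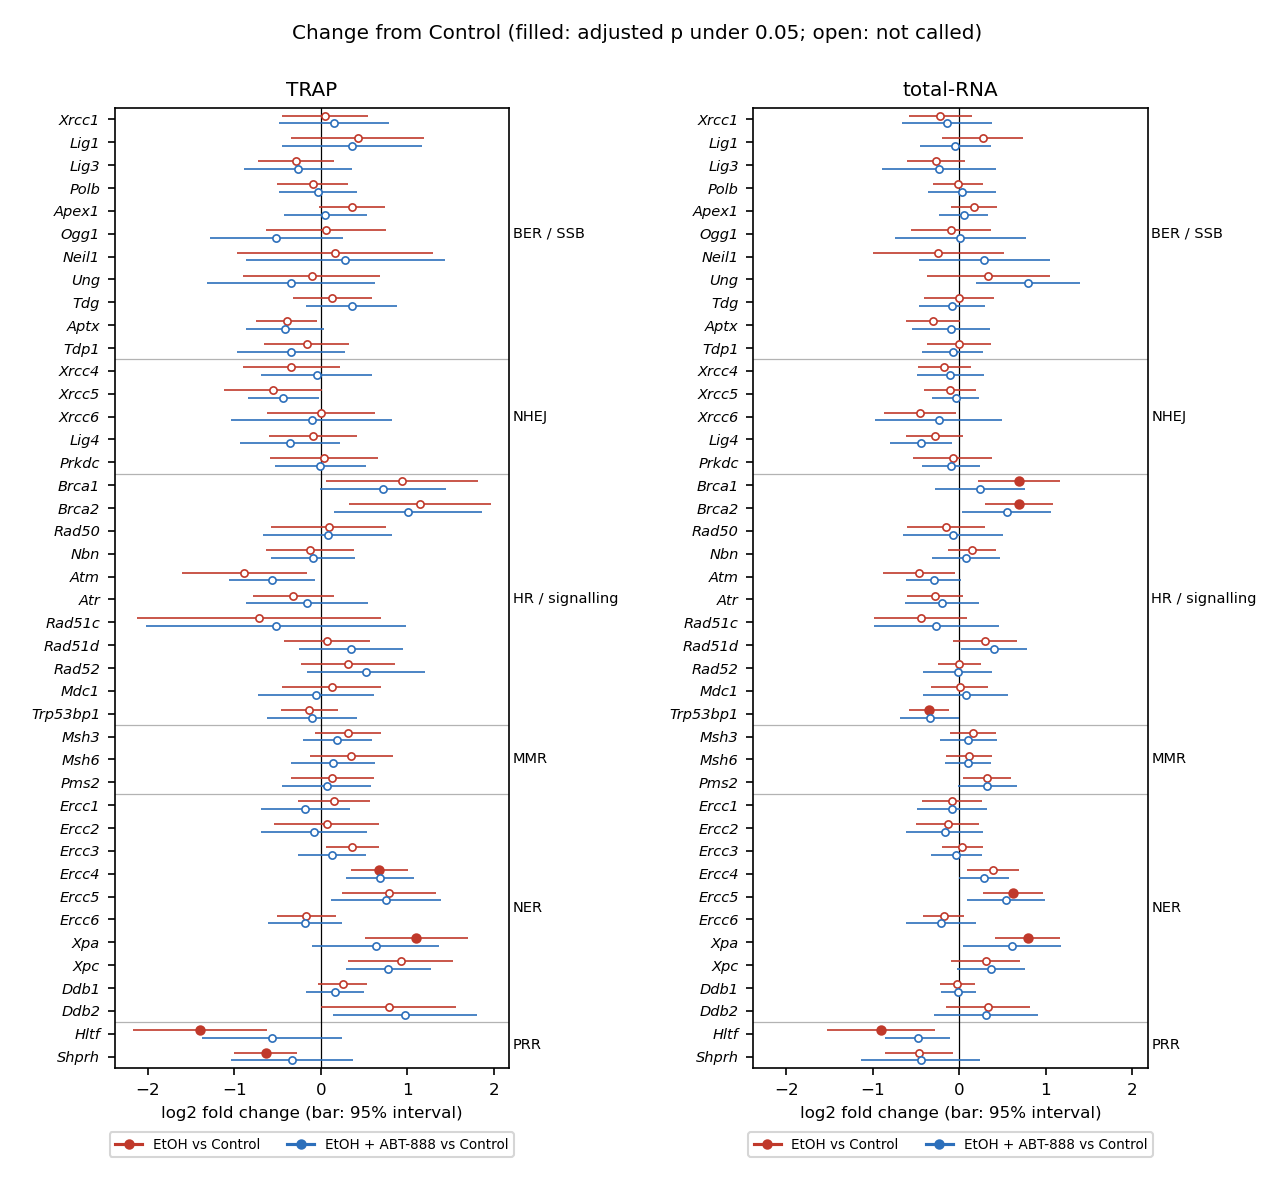
Log2 fold change from Control with 95% interval for the 42 members, in TRAP (left) and total-RNA (right), for EtOH (red, n = 4) and EtOH + ABT-888 (blue, n = 4) against the same 3 Control mice. Filled points passed the test, which happened only with EtOH: Ercc4, Xpa, Hltf and Shprh in TRAP, and Brca1, Brca2, Trp53bp1, Ercc5, Xpa and Hltf in total-RNA.

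In EtOH + ABT-888, 0 of 42 members passed the test against Control in TRAP (against 0.476% of all genes tested) and 0 in total-RNA (against 0.263%) with edgeR's quasi-likelihood test. At an unadjusted p under 0.05 there were 7 in TRAP (16.7%, against 12.1% of all genes) and 8 in total-RNA (19%, against 15.9%). The exactTest called 0 and 0 (2.26% and 3.87% of all genes), and DESeq2 2 and 0 (2.98% and 4.41%). Libraries did not overlap with Control in 6 members in TRAP (14.3%, against 14% of all genes tested) and in 7 in total-RNA (16.7%, against 16.9%). Without the total-RNA library of mouse 3, 1 member was called in total-RNA, where 6.18% of all genes were called in that fit. The comparisons of EtOH and of EtOH + ABT-888 share the Control libraries. Ercc4 in TRAP had 45.4, 32.9, 39.3 and 37.0 CPM in EtOH + ABT-888, without overlap with Control, at a log2 fold change of 0.69 (SE 0.18, adjusted p = 0.131). Xpa in TRAP had 8.04, 12.6, 24.2 and 17.4 CPM (0.64, SE 0.34, adjusted p = 0.483), with mouse 3 below every Control mouse and mouse 10 above every other mouse of its group. Hltf in TRAP had 21.7, 21.02, 5.49 and 15.9 CPM (-0.56, SE 0.37), with 2 mice in the Control range and mouse 10 as low as the EtOH mice. Shprh in TRAP had 80.0, 83.2, 23.8 and 66.5 CPM (-0.33, SE 0.33, adjusted p = 0.719), with mouse 10 far below the rest.

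The direct test of ABT-888 is the comparison of EtOH + ABT-888 with EtOH. It called 0 of 42 members in TRAP and 0 in total-RNA (0% of all genes tested in each). At an unadjusted p under 0.05 there were 0 members in TRAP (against 0.966% of all genes) and 1 in total-RNA (2.38%, against 1.91%). Groups did not overlap in 0 members in TRAP (against 0.945% of all genes) and 1 in total-RNA (against 1.36%), and exactTest and DESeq2 called 0 members in each. The member beyond that level was Brca1 in total-RNA, which had 2.70, 3.22, 3.48 and 3.34 CPM in EtOH + ABT-888, below all 4 EtOH libraries (log2 fold change -0.46, SE 0.19, adjusted p = 1). In TRAP, Xpa stood at -0.46 (95% interval -1.19 to 0.26), Shprh at 0.31 (-0.35 to 0.96) and Ercc4 at 0.01 (-0.36 to 0.38). Hltf, which the study picked for this same difference, stood at 0.84 (SE 0.44, -0.11 to 1.80), given as a description. The intervals of Xpa and Shprh hold both no difference and a difference of the size of the EtOH change. For Ercc4 the interval does not reach a fall of the size of its estimated EtOH change (0.68). That estimate has its own error, and Ercc4 was named because it was called.

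An interaction over all 22 libraries asked if the EtOH change was unlike in the sample types. It called 0 of 42 members (against 0.0213% of all genes tested), with 0 at an unadjusted p under 0.05 (against 4.87%). The likelihood ratio test called 0 (against 0.114% of all genes). With the mouse as a block 0 were called (against 0.0995%) and 3 had an unadjusted p under 0.05. The share of all genes at that level was not counted in the blocked fit. The difference was 0.27 for Ercc4 (SE 0.20), 0.29 for Xpa (SE 0.44), -0.51 for Hltf (SE 0.58) and -0.19 for Shprh (SE 0.48). A member that passed the test in only 1 sample type is thus not shown to have changed differently there.

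A further list of 75 repair genes, with the PARP enzymes and the partners of the members, was read in the same fits, and 66 were tested. In Control 30 were called between TRAP and total-RNA (45.5%, against 59.9% of all genes), 20 higher and 10 lower. With EtOH in TRAP 2 were called (3.03%, against 5.24% of all genes), both higher: Parp3, a relative of Parp1 (log2 fold change 1.10, SE 0.25, adjusted p = 0.0293), and Rpa2, a subunit of the protein that coats single-stranded DNA (0.88, SE 0.23, adjusted p = 0.0481). In total-RNA 6 were called (9.09%, against 17.6%). Among them, Rpa2 (0.53), the flap endonuclease Fen1 (0.74), Brcc3 (0.46) and the NER factor Uvssa (0.73) were higher, and Parp1 was lower (-0.48, SE 0.14, adjusted p = 0.0356). Parp1, the main target of ABT-888, had 76.8 ± 6.1 CPM in Control total-RNA (SD, n = 3), 54.9 ± 10.7 in EtOH and 64.4 ± 23.05 in EtOH + ABT-888 (n = 4 each), and in TRAP it stood at -0.22 with EtOH (SE 0.34, adjusted p = 0.738). In EtOH + ABT-888, 0 of the 66 were called in TRAP (against 0.476% of all genes) and 0 in total-RNA (against 0.263%). At an unadjusted p under 0.05 there were 5 in TRAP (7.58%, against 12.1% of all genes) and 5 in total-RNA (7.58%, against 15.9%).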

How the data were processed

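RNA of the PFC was measured in 22 libraries of 11 mice. Per the labels and the paper's methods, the authors depleted rRNA, sequenced paired 50-base reads, aligned them to mm10 with STAR and deposited raw counts per gene from featureCounts with an ENSEMBL annotation, without normalization. Versions, strand setting and the handling of multimapping reads are not given in the sources used here, so genes that overlap exons of another strand are uncertain.

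From these counts, genes with at least 500 counts in all and a count in at least 3 libraries were kept (14072 of 39056). Normalized CPM used TMM factors, log2 CPM a prior count of 1, and RPKM exon lengths of GENCODE M21, in which 38872 genes were found and 184 were not. Tests were edgeR's quasi-likelihood test (edgeR 4.0.16, limma 3.58.1, R 4.3.3), two-sided, Benjamini-Hochberg adjusted over all genes kept, on the libraries of the groups compared, and over all 22 libraries for the interaction. The study states exactTest for pairs of groups, which was an alternative here, with DESeq2 1.42.0, RLE factors, no filter, a single fit over all libraries, the likelihood ratio test for the interaction, the mouse as a block, and leaving out each library. Scripts were tested on simulated data.

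TRAP and total-RNA libraries are paired by the animal number in the labels, and deviations of libraries of the same mouse correlated at 0.102 to 0.622. Depth per library was 6570957 to 32421392 counts. Named with values were the members called in a comparison of treatments or the interaction, those with the smallest p between TRAP and total-RNA (4 in each direction in Control, 2 in EtOH and in EtOH + ABT-888), the highest and lowest per length in each pathway, Hltf, and Xrcc1, Lig3, Polb, Aptx and Tdp1. Further members, such as Ercc3, Lig1, Nbn, Rad51d, Ercc6 and Tdg, and the promoter motifs were chosen after values were seen. The members and all lists were chosen with earlier results of these data known. Some genes of these lists are not reported here by name.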

Additional observations from a re-analysis of the deposited data

Results flagged for a closer look

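Among 104 groups of 4 libraries of the named members, 3 held a library far from the others by Dixon's test at the 95% level, where chance flags about 1 in 20 groups. Shprh in EtOH + ABT-888 total-RNA had 26.3 CPM in mouse 10 (26.27), and the nearest mouse had 78.4. Brca1 in EtOH total-RNA had 4.79 CPM in mouse 5, and the nearest mouse had 4.27. Xrcc1 in EtOH TRAP had 11.0 CPM in mouse 8 (11.01), and the nearest mouse had 18.6.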

How the results depend on the processing

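Some counts of members called moved by over 1.5 times, and the cause was not tested. A single fit over all 22 libraries gave 8 members for TRAP against total-RNA in Control (42.8% of all genes), 12 in EtOH + ABT-888 (51.6%), 0 for EtOH against Control in total-RNA (1.07%), and 1 in TRAP of EtOH + ABT-888 against Control (2.86%). DESeq2 gave 11 for TRAP against total-RNA in EtOH + ABT-888 (45.2% of all genes), 7 for EtOH against Control in TRAP (10.8%) and 2 in TRAP of EtOH + ABT-888 against Control (2.98%). Without the filter on low counts, EtOH against Control in TRAP gave 7 (6.13% of all genes). The replicate block of the mouse gave 20 in EtOH (58.8% of all genes) and 14 in EtOH + ABT-888 (54.3%) for TRAP against total-RNA, 22 in Control (62.5%) and 0 for the interaction (0.0995%). Leaving out 1 library at a time gave 16 to 21 members for TRAP against total-RNA in Control (52.5% to 59.6% of all genes). It gave 8 to 16 in EtOH (43.6% to 50.3%) and 5 to 10 in EtOH + ABT-888 (32.3% to 42.2%). For EtOH against Control it gave 0 to 7 in TRAP (0.597% to 11%) and 0 to 10 in total-RNA (6.24% to 25.7%). For EtOH + ABT-888 against Control it gave 0 to 0 (0% to 2.65%) and 0 to 1 (0% to 6.18%). It gave 0 for EtOH + ABT-888 against EtOH (0%) and for the interaction (0.00711% to 0.0355%). Trp53bp1 in TRAP of EtOH + ABT-888 against Control ran from -0.28 to 0.0915 (log2 fold change) when 1 library was left out, and turned from -0.10 to 0.0915 without mouse 10. Of the other values of single members, 328 kept their direction and their side of the threshold under other settings, 15 lost and 9 gained the call, and without 1 library 377 kept them, 66 lost and 6 gained the call. Over all genes, the calls for EtOH against Control were 737 in TRAP, and 1372 with exactTest, 1523 with DESeq2, 1472 without the filter and 1191 in the single fit. In total-RNA they were 2482 and, in the single fit, 151. With ABT-888, calls in TRAP were 67, and 318, 420, 454 and 403 under the same alternatives, and in total-RNA 37, and 544, 621 and, without the filter, 544. The interaction called 3, and 14 with the block, 16 with the likelihood ratio test and 5 without the filter. TRAP libraries were shallower than total-RNA libraries, so low members were measured less finely in them.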
